A study of Mus musculus with 6 samples.

Results

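The genes described here are 10 transcripts typical of sympathetic neurons, measured by RNA-seq in pooled mouse veins with thrombi. They are Th, Ddc and Dbh, the enzymes of noradrenaline synthesis, Npy, a peptide released with noradrenaline, and 6 genes of the neuronal vesicle, axon and cell body, namely Syn2, Stmn2, Uchl1, Rtn1, Eef1a2 and Ndrg4. They were taken by symbol from the 16533 genes listed in each library, and all 10 were found and tested. They lie on 8 chromosomes, with Dbh and Eef1a2 on 2, Stmn2 on 3, Uchl1 on 5, Npy and Syn2 on 6, Th on 7, Ndrg4 on 8, Ddc on 11 and Rtn1 on 12. They had been picked because their levels stood apart in a single library, the mKO library 3, so every value of that library against the other 5 is a description and carries no test.

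The study compared mouse inferior venae cavae 24 h after ligation, which produces a deep vein thrombus. The mKO mice were Stingf/f Lyzm-Cre+/-, and the control mice were Stingf/f, without Cre. Each group had 3 libraries, and each library held 3 thrombus-containing veins mixed together, so the counts come from vessel wall, clot and any attached tissue at once. Both groups carried the floxed allele and both were ligated. The library titles call the control mice WT and the mKO mice Sting. The Cre is driven from the lysozyme M locus, which is active in neutrophils, monocytes and macrophages. In such bulk samples, fewer cells of a type and less RNA per cell cannot be told apart.

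Sympathetic postganglionic neurons have their cell bodies in ganglia near the spine and send axons into the adventitia of blood vessels, where they release noradrenaline and drive constriction. Tyrosine is converted to DOPA by tyrosine hydroxylase, then to dopamine by the decarboxylase encoded by Ddc, and to noradrenaline inside vesicles by dopamine beta-hydroxylase. Most messenger RNA of such a neuron lies in its cell body, and axons hold a small and selected share.

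The libraries held between 158579864 and 180068483 counted reads, with a median gene count of 1255 to 1698. Haemoglobin genes took 21.2 to 27.1% of the reads and mitochondrially encoded genes 8.56 to 14.4%. Library 3 of the mKO group listed 62 genes at zero, against 10 to 18 in the other 5. Sting1, the targeted gene, had 22.7, 21.4 and 28.7 CPM, reads per 1000000 of the scaled library total, in mKO libraries 1, 2 and 3, against 25.1, 31.4 and 27.1 CPM in control libraries 1, 2 and 3. The groups overlapped, and edgeR's quasi-likelihood test gave a log2 fold change of -0.20 (SE 0.14, adjusted p = 0.579). Cells outside the myeloid lineage, which the Cre is not meant to target, are part of the tissue. Their part in the Sting1 level was not tested.

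Th, which encodes the rate-limiting enzyme of catecholamine synthesis, had 26 reads in mKO library 3, or 0.152 CPM. The other libraries had 22.6 and 34.8 CPM (mKO 1 and 2) and 16.7, 31.3 and 52.7 CPM (control 1, 2 and 3). The level in mKO library 3 was 110-fold below the lowest of the other 5, whereas those 5 spanned 3.16-fold among themselves. Dbh, whose enzyme makes noradrenaline from dopamine, had 0.293 CPM in mKO library 3, against 29.4 and 56.9 CPM in mKO libraries 1 and 2 and 29.9, 53.1 and 84.5 CPM in control libraries 1, 2 and 3. It too lay 101-fold below the next library. Ddc, the decarboxylase that follows Th in the pathway, had 0.375 CPM in mKO library 3, against 16.7 and 21.9 CPM in mKO libraries 1 and 2 and 12.9, 20.7 and 29.0 CPM in control libraries 1, 2 and 3. The gap to the next library was 34.6-fold for Ddc, smaller than for Th and Dbh.

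The promoters of Th and Dbh are shown because these genes kept the smallest share of their level in mKO library 3. RefSeq windows of 250 bases before and 50 after the start (GRCm38.p6) were found for 9 of the 10 members, as 16 windows. The Th window is chr7:142899946-142900245 on the minus strand and the Dbh window is chr2:27165257-27165556 on the plus strand. Each is printed 5′ to 3′ with the gene, and capitals mark matches, on either strand, to the cyclic AMP response element TGACGTCA or to the homeodomain core ATTA, which reads TAAT on the opposite strand.
Th: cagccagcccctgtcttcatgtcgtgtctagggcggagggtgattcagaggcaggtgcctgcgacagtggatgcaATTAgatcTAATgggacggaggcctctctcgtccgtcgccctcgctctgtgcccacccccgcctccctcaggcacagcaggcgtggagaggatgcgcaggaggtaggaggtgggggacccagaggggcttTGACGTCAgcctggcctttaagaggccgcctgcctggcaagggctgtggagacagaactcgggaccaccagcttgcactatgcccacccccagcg
Dbh: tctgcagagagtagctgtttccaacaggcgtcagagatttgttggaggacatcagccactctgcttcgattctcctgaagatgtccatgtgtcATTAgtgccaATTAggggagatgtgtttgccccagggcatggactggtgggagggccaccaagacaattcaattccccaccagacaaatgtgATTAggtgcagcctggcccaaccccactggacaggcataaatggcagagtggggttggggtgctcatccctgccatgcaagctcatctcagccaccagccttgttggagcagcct
The cyclic AMP response element was in 1.79% of 32851 windows of this length and, among the 16 member windows, only in that of Th, 45 bases before the start. The ATTA core, the letters bound by many homeodomain factors and too short to be specific, was in 58.0% of all windows and in 9 of the 16. In Dbh it lay 157, 147 and 65 bases before the start, and in Th 175 and 167 bases before it. The motifs do not overlap each other in these windows, and a match describes the letters alone.

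Npy encodes neuropeptide Y, a vasoconstrictor peptide stored with noradrenaline in large vesicles. It had 4.03 CPM in mKO library 3, against 45.5 and 65.7 CPM in mKO libraries 1 and 2 and 30.7, 42.1 and 124 CPM in control libraries 1, 2 and 3. Npy was also the most uneven member among the other 5, which spanned 4.03-fold, with control library 3 far above the rest. Syn2, a synapsin that tethers synaptic vesicles, had 0.708 CPM in mKO library 3, against 9.54 and 16.8 CPM in mKO libraries 1 and 2 and 8.92, 16.5 and 21.0 CPM in control libraries 1, 2 and 3. That is 12.6-fold below the lowest of the other 5, control library 1.

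Of the axon and cell body genes, Stmn2, a stathmin that acts on microtubules in growing axons, had 2.18 CPM in mKO library 3. The other libraries had 37.8 and 49.6 CPM (mKO 1 and 2) and 26.4, 43.6 and 59.5 CPM (control 1, 2 and 3). Rtn1, a reticulon of the neuronal endoplasmic reticulum, had 0.603 CPM in mKO library 3, against 13.2 and 19.6 CPM in mKO libraries 1 and 2 and 10.2, 17.6 and 25.9 CPM in control libraries 1, 2 and 3. Both were far below every other library, by 12.1-fold for Stmn2 and 17.0-fold for Rtn1. Uchl1, an abundant neuronal ubiquitin hydrolase, had 6.31 CPM in mKO library 3, against 36.4 and 52.4 CPM in mKO libraries 1 and 2 and 28.9, 44.8 and 67.1 CPM in control libraries 1, 2 and 3. Ndrg4, a cytosolic protein of neurons and heart, had 3.56 CPM in mKO library 3, against 23.0 and 36.5 CPM in mKO libraries 1 and 2 and 19.8, 32.8 and 49.7 CPM in control libraries 1, 2 and 3. Eef1a2, the elongation factor form used by neurons and striated muscle, had 2.43 CPM in mKO library 3, against 10.5 and 16.2 CPM in mKO libraries 1 and 2 and 8.08, 15.1 and 21.9 CPM in control libraries 1, 2 and 3. These last genes kept more of their level, and the gap to the next library was 4.58-fold for Uchl1, 5.56-fold for Ndrg4 and 3.32-fold for Eef1a2.

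**Figure D1:**
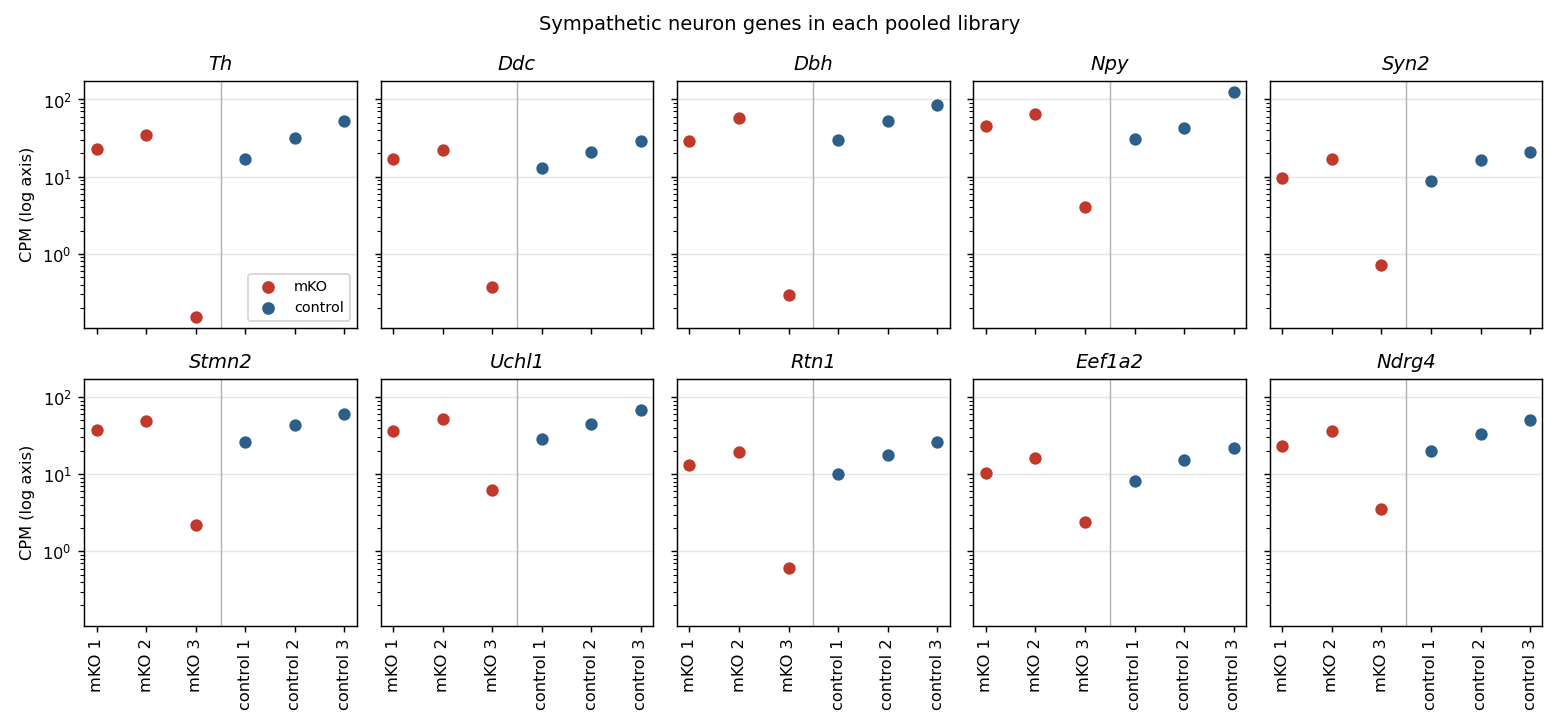
Level of each of the 10 genes (CPM, log axis) in the 3 mKO libraries (red) and the 3 control libraries (blue), 1 point per pooled library. In every panel mKO library 3 is the lowest point, at 0.152 CPM for Th and 6.31 CPM for Uchl1, and control library 3 is the highest.

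All 10 genes were lowest in mKO library 3 and all 10 lay at least 4-fold below the mean of the other 5. Of the 16523 genes tested, 17.3% were lowest in that library and 2.58% were at least 4-fold lower; the genes were chosen on this contrast, so nothing is read from the counts. The median log2 ratio, taken as log2 CPM of mKO library 3 minus the mean log2 CPM of the other 5, was -4.26, and that of all genes was 0. Expressed as a percentage of the mean CPM of the other 5, the residual level differed widely between members. Th kept 0.481% (95% counting interval 0.314 to 0.705), Dbh 0.576% (0.428 to 0.76) and Ddc 1.85% (1.42 to 2.36). Rtn1, Syn2, Stmn2 and Npy kept between 3.48 and 6.55%. Ndrg4 kept 11.0% (10.2 to 11.9), Uchl1 13.7% (12.9 to 14.6) and Eef1a2 16.9% (15.4 to 18.7). The catecholamine enzymes thus lay at the low end and Eef1a2, Uchl1 and Ndrg4 at the high end. The intervals cover counting error in mKO library 3 only, and those of Th and Dbh did not reach that of any other member.

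**Figure D2:**
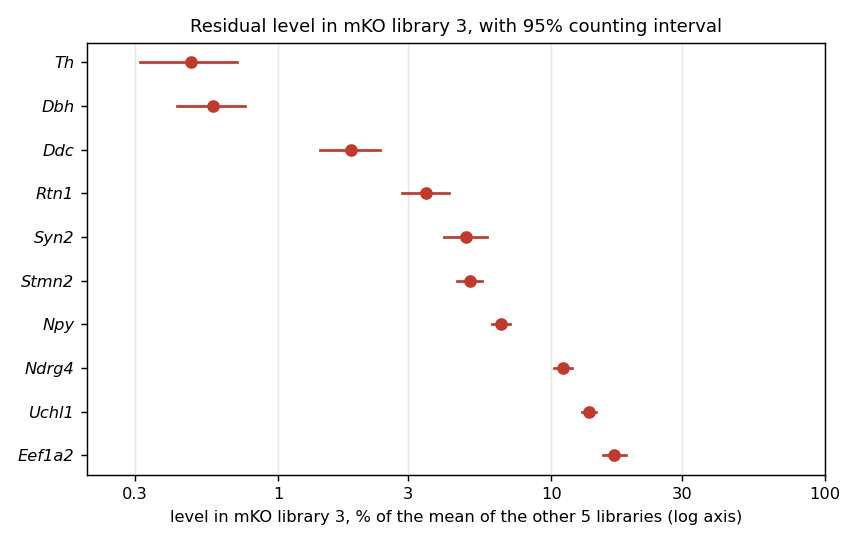
Level in mKO library 3 as a percentage of the mean of the other 5 libraries (log axis), by gene, with 95% counting intervals. Th at 0.481% and Dbh at 0.576% have overlapping intervals, and Eef1a2 at 16.9% lies at the other end.

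The proportions of the members within mKO library 3 differed from those elsewhere. For each read of Th there were 26.5 of Npy in mKO library 3, against 1.34 to 2.35 in the other 5. The count ratio of Uchl1 to Th was 41.5 in mKO library 3, against 1.27 to 1.73 in the other 5, and that of Ddc to Th was 2.46, against 0.551 to 0.777. Dbh stayed closer to Th, with a ratio of 1.92 in mKO library 3, against 1.3 to 1.79 in the other 5. Per length of exon, as RPKM, the CPM divided by exon length in kilobases, the order of the members also changed. Npy stood at 7.12 RPKM in mKO library 3 and at a mean of 109 RPKM in the other 5, the highest member in both. Th was the lowest member in mKO library 3, at 0.0644 RPKM, but in the other 5 its mean of 13.4 RPKM was behind only those of Npy, Uchl1 and Dbh. Eef1a2 moved the other way in rank, at 1.17 RPKM in mKO library 3, behind Npy and Uchl1, and a mean of 6.89 RPKM in the other 5.

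Among the other 5 libraries the 10 genes went up and down together, and the genotypes alternated. For 8 of the 10, the order was control 3, mKO 2, control 2, mKO 1 and control 1, from high to low. Dbh differed only in having control library 1 above mKO library 1, and Npy only in having mKO library 1 above control library 2. Control library 3 was the highest and control library 1 the lowest of the 5 for 9 of the 10 genes, against 5.06% of all genes tested. Each level in this order is a single pool, so neighbours in it have no replicate spread between them. Their median log2 level, centred over the 5 libraries, was -0.34 and 0.25 in mKO libraries 1 and 2, and -0.66, 0.10 and 0.68 in control libraries 1, 2 and 3. Rtn1 stayed within a mean of 0.01 of that profile and Ndrg4 within 0.02, whereas Npy strayed by 0.25 on the log2 scale.

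Fitted as the study's design has it, 3 mKO against 3 control libraries, none of the 10 genes passed edgeR's quasi-likelihood test at an adjusted p of 0.05, as for 0% of the 16523 genes. None reached an unadjusted p of 0.05, as 11.9% of all genes did, and none passed with DESeq2, which called 2.88% of genes. The 10 genes were picked because mKO library 3 stood apart, and that library is in this fit. For them the fit, with its spread and group overlap, is therefore a description and not a test of genotype. Th averaged 19.2 ± 17.6 CPM in mKO libraries and 33.6 ± 18.1 CPM in control libraries (SD, n = 3 each), with a log2 fold change of -0.81 (SE 1.47, edgeR adjusted p = 0.826). Dbh averaged 28.9 ± 28.3 CPM in mKO libraries and 55.9 ± 27.4 CPM in control libraries (SD, n = 3 each), with a log2 fold change of -0.95 (SE 1.46, edgeR adjusted p = 0.794). For every member the SD of the mKO libraries was large against their mean, with mKO library 3 apart from mKO libraries 1 and 2. The median over the members was -0.69, against -0.03 for all genes. The groups overlapped for all 10 members; 18.2% of all genes had groups without overlap.

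Without mKO library 3, the levels of the genotypes lay close together and the remaining mKO libraries overlapped the control libraries for all 10 genes, where 27.6% of all genes had no overlap. Th had a mean of 28.7 CPM in mKO libraries 1 and 2 and 33.6 CPM in the 3 control libraries, with a log2 fold change of -0.23 (SE 0.46, edgeR adjusted p = 0.88). Dbh had the widest difference, with a mean of 43.2 CPM in mKO libraries 1 and 2 and 55.9 CPM in control libraries, a log2 fold change of -0.37 (SE 0.46, edgeR adjusted p = 0.789). Stmn2 had 43.7 CPM in mKO libraries 1 and 2 and 43.1 CPM in control libraries, a log2 fold change of 0.02 (SE 0.32, edgeR adjusted p = 0.987). Over the 10 genes the fold changes ran between -0.37 and 0.02, with a median of -0.18 against -0.02 for all genes. None passed the test or reached an unadjusted p of 0.05, whereas edgeR called 0.0242% of the 16527 genes tested and 9.61% reached an unadjusted p of 0.05. None passed with DESeq2 or limma voom, which called 1.89% and 0.0182% of genes there. Standard errors of 0.32 to 0.60 mean that differences smaller than the library-to-library spread were not detectable with 2 and 3 pools.

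**Figure D3:**
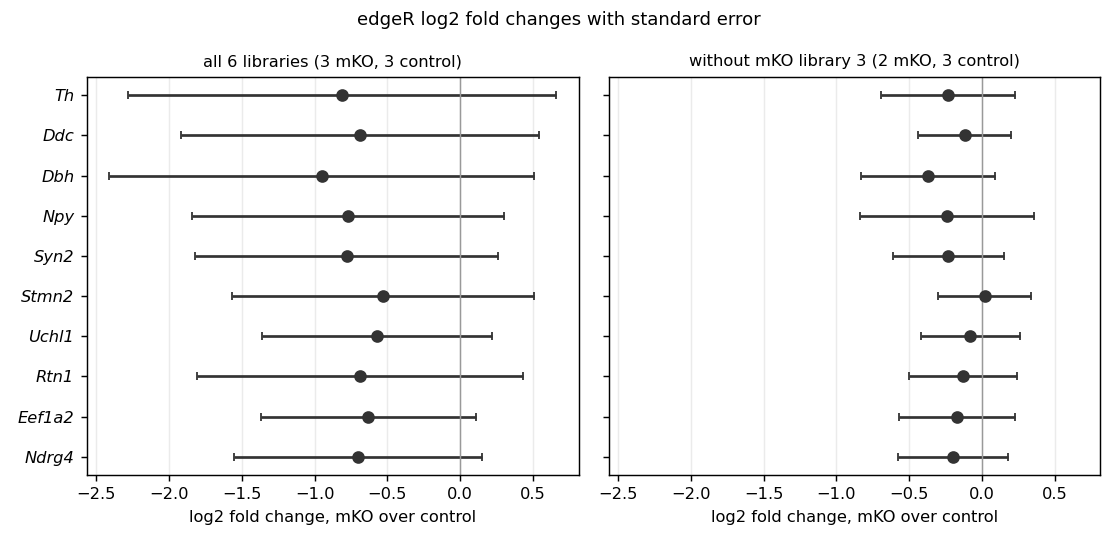
Log2 fold change of mKO over control from edgeR for each gene, with its standard error as bars, over all 6 libraries (left) and without mKO library 3 (right). Every bar crosses 0 in both panels, and the bars are longer on the left.

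Other genes of the noradrenergic programme were low in the same library. Of 14 listed identity genes, 13 were measured, 10 were lowest in mKO library 3, 7 were at least 4-fold below the mean of the other 5, and the median log2 ratio was -3.77. Over all genes tested, 17.3% were lowest there and 2.58% at least 4-fold lower. This list and those below were written with earlier results of these data known, so their counts carry no test. Slc6a2, the noradrenaline transporter that takes the transmitter back up, had 0.269 CPM in mKO library 3, against 21.4 to 45.5 CPM in the other 5. Hand1, Isl1 and Tfap2b, transcription factors of the sympathetic lineage, had no read in mKO library 3, which with a floor of 3 reads puts them at least 114-fold, 97.5-fold and 69.4-fold below the mean of the other 5. Phox2a, a homeodomain factor that acts on Dbh and Th, had 0.328 CPM in mKO library 3, against 3.67 to 9.08 CPM, and Hand2 had 0.673 CPM, against 5.29 to 15.9 CPM. Other genes of the list kept more of their level. Slc18a2, the vesicular monoamine transporter, had 6.57 CPM in mKO library 3, against 12.3 to 23.4 CPM in the other 5. Gch1, which makes the cofactor of Th, stood at 96.6% of the mean of the other 5, Gata2 at 83.5% and Gata3 at 57.6%. Cyb561, an electron carrier of the vesicle membrane, was 3.45-fold below that mean and Maoa, which breaks noradrenaline down, 3.5-fold.

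Wider neuronal lists were low too. In 6 lists of sympathetic identity, secretory granule, synaptic vesicle, axon cytoskeleton, RNA-binding and surface, and receptor and channel genes, 83 of 89 genes were measured, and 76 were lowest in mKO library 3. Of these 83 genes, 60 were at least 4-fold lower there and 9 had no read, with a median log2 ratio of -3.83. The share lowest there was 17.3% of all genes tested, and the share at least 4-fold lower 2.58%. Of the 16523 genes tested, 56 had no read in mKO library 3. The list medians were -5.74 for granule and peptide genes, -3.93 for axon cytoskeleton, -3.40 for vesicle, -3.24 for receptors and channels and -2.97 for RNA-binding and surface genes. Snap25, a fusion protein of the nerve terminal, had 0.176 CPM in mKO library 3, against 13.7 to 39.9 CPM in the other 5. Prph, a neurofilament of peripheral neurons, had 0.299 CPM in mKO library 3, against 21.5 to 65.1 CPM in the other 5. Some listed genes were near the level of the other libraries, with Cpe (carboxypeptidase E) at 103%, Vamp2 at 93.5% and L1cam at 99.4% of the mean of the other 5. Without mKO library 3, edgeR called none of the 83 genes between genotypes, against 0.0242% of all genes. None reached an unadjusted p of 0.05, as 9.61% of all genes did. The median log2 fold change of the 83 genes was -0.07.

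**Figure D4:**
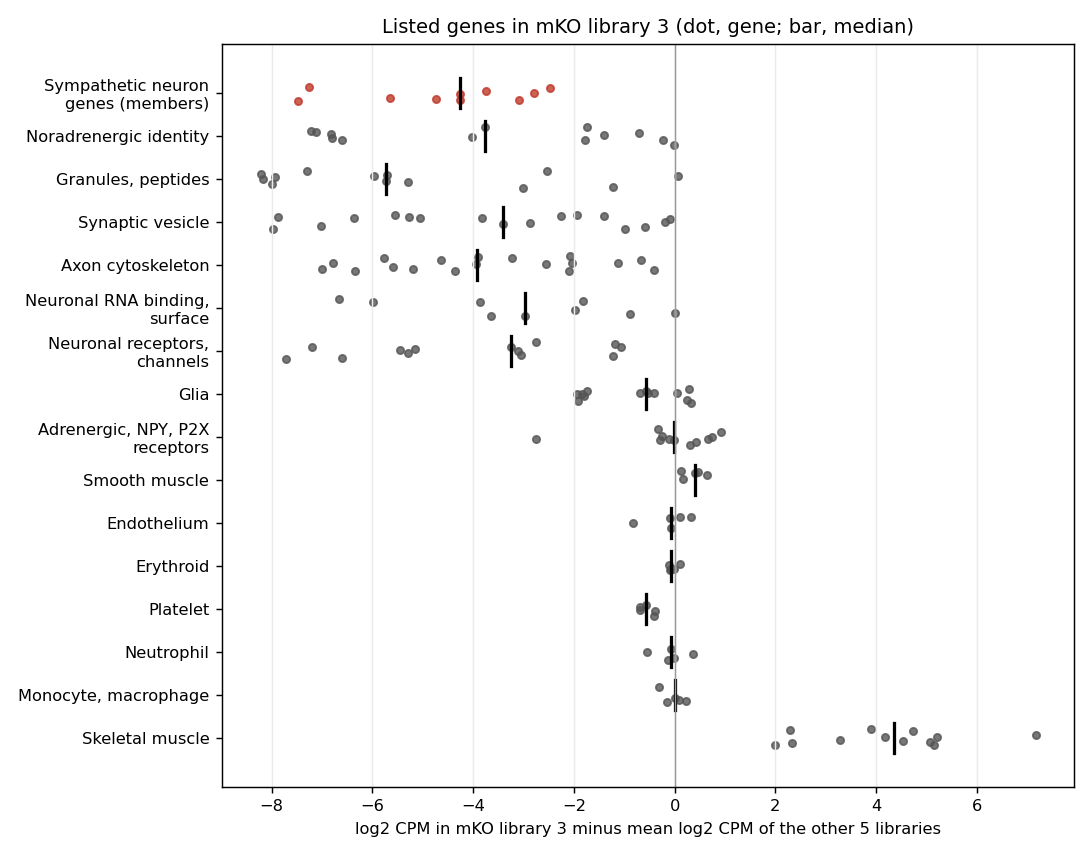
Log2 CPM of mKO library 3 minus the mean log2 CPM of the other 5 libraries, 1 dot per measured gene, by gene list, with a bar at each median. The members (red) have a median of -4.26 and the 6 lists below them lie between -5.74 and -2.97, while skeletal muscle genes lie at 4.36.

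Close relatives of the members were less low in the median. Of 16 measured paralogs, 8 were lowest in mKO library 3, 2 were at least 4-fold lower there, and the median log2 ratio was -0.17. All genes tested had 17.3% lowest there and 2.58% at least 4-fold lower. Eef1a1, the elongation factor form of most cells, had 2587 CPM in mKO library 3, against 2582 to 2794 CPM in the other 5. Rtn3 stood at 89.0% and Rtn4 at 88.9% of the mean of the other 5, Ndrg1 at 98.3% and Uchl3 at 107%. Rtn2 at 79.5%, Ndrg2 at 71.7%, Ndrg3 at 92.4%, Uchl5 at 109%, Uchl4 at 65.7%, Syn3 at 126% and Hdc, a decarboxylase related to Ddc, at 98.0% lay on both sides of that mean, while Syn1 at 36.5% and Stmn1 at 37.3% were lower. The paralogs at least 4-fold lower were the neuronal stathmins Stmn3 at 1.08% and Stmn4 at 3.53%, which are themselves made by neurons.

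The receptors that nerve-derived transmitters act on did not share the pattern in the median. Of 11 measured adrenergic, neuropeptide Y and purine receptors, 2 were lowest in mKO library 3, as were 17.3% of all genes tested. Their median log2 ratio was -0.02. Npy1r, a neuropeptide Y receptor, had 3.97 CPM in mKO library 3, or 96.6% of the mean of the other 5, which ranged widely, from 1.09 to 9.47 CPM. Adra2a, an adrenoceptor also found on the nerve ending itself, was the only receptor at least 4-fold lower, as were 2.58% of all genes tested. It had 0.38 CPM in mKO library 3, against 1.8 to 3.87 CPM in the other 5. Of the neurotrophic factors made by target tissue, 5 of 6 were measured, with a median log2 ratio of -0.01, and Gdnf stood at 26.8% of the mean of the other 5.

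Glial genes were between these extremes. Of 13 measured, 6 were lowest in mKO library 3, 3 were at least 4-fold lower (Cdh19, Foxd3 and Gfap, named after their values were seen), and the median log2 ratio was -0.56. Among all genes tested these shares were 17.3% lowest and 2.58% at least 4-fold lower. Sox10, the lineage factor of peripheral glia, stood at 26.8% of the mean of the other 5. The myelin gene Mbp stood at 116% of the mean of the other 5. The summed glial level was 108 CPM in mKO library 3, against 96.1 to 158 CPM in the other 5, and Mbp made up 72.7 of the 108 CPM. Without Mbp, left out after its values were seen, the sum was 35.7 CPM in mKO library 3, against 36.4 to 99.5 CPM in the other 5, so mKO library 3 was then the lowest. Of markers of other neurons, 4 of 14 sensory genes and 1 of 5 cholinergic and nitrergic genes were measured. Of the 4 sensory genes, 3 were lowest in mKO library 3 and 2 at least 4-fold lower, with a median log2 ratio of -2.0. Of all genes tested, 17.3% were lowest there and 2.58% at least 4-fold lower. The 4 sensory genes summed to 2.11 CPM in mKO library 3, against 14.1 to 32.8 CPM in the other 5. Trpv1, a channel of sensory neurons, stood at 209% of the mean of the other 5 and Calca, a sensory peptide, was 2.24-fold below it. Both were scarce, with means of 0.266 CPM for Trpv1 and 0.734 CPM for Calca in the other 5. Avil was 7.73-fold below the mean of the other 5. Vip, a peptide of cholinergic nerves, was 186-fold below the mean of the other 5, and Pirt, a sensory ion channel regulator, 148-fold. Of 5 chromaffin genes 3 were measured, and Penk stood at 142%. The chromogranins Chga and Chgb, which adrenal chromaffin cells share with sympathetic neurons, were 45.2-fold and 256-fold below the mean of the other 5, while the adrenal cortex genes, 3 of 9 measured, had a median log2 ratio of 0.08.

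**Figure D5:**
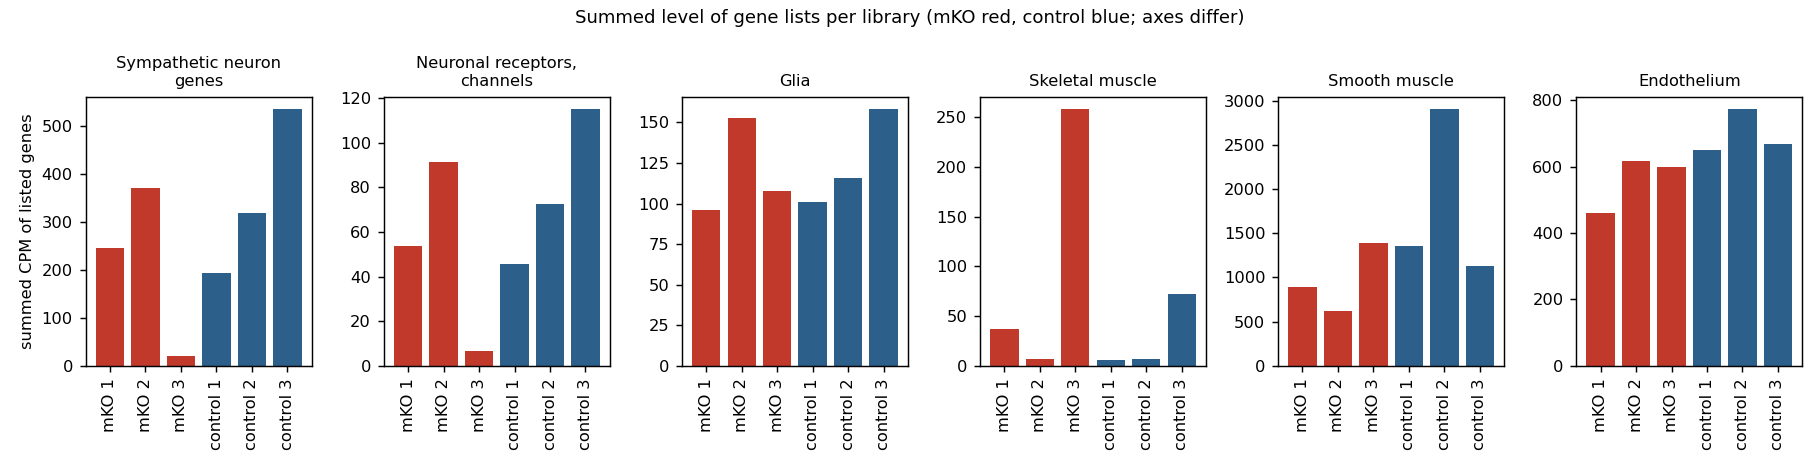
Summed CPM of the genes of each list in the 3 mKO libraries (red) and the 3 control libraries (blue), with a separate axis per panel. The 10 sympathetic neuron genes summed to 20.6 CPM in mKO library 3, against 193 to 535 CPM in the other 5, and glia to 108 CPM, of which Mbp gave 72.7, against 96.1 to 158 CPM.

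Skeletal muscle genes moved with mKO library 3 in the opposite direction. Of 12 measured, none was lowest there, 10 were at least 4-fold higher than the mean of the other 5, and the median log2 ratio was 4.36; 0.206% of all genes tested were at least 4-fold higher. Their summed level was 258 CPM in mKO library 3, against 37.0 and 7.05 CPM in mKO libraries 1 and 2 and 5.65, 7.19 and 72.4 CPM in control libraries 1, 2 and 3. Acta1, the actin of skeletal muscle fibres, had 48.6 CPM in mKO library 3, against 0.432 to 13.6 CPM in the other 5. In control library 3 the neuronal members and the muscle genes were both high, so the lists did not oppose each other there. The part played by attached tissue in the low neuronal level was not tested.

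For other cells of the sample, the median log2 ratio in mKO library 3 was 0.41 for smooth muscle, -0.08 for endothelium, -0.08 for erythroid, -0.57 for platelet, -0.07 for neutrophil, 0.00 for monocyte and macrophage and -0.69 for brown fat genes. Of the 5 measured brown fat genes, 1 was lowest in mKO library 3, against 17.3% of all genes tested. Ucp1 and Cidea were at least 4-fold below the mean of the other 5, as were 2.58% of all genes. Dio2 stood at 153% and Cox8b at 78.4% of that mean. The brown fat genes summed to 13.5 CPM in mKO library 3, within the 9.95 to 16.4 CPM of the other 5. Ucp1, which uncouples respiration, had 0.263 CPM in mKO library 3, against 0.183 to 4.34 CPM in the other 5, and Cidea, a lipid droplet protein, had 0.427 CPM, against 0.803 to 2.55 CPM. Endothelial genes summed to 598 CPM in mKO library 3, within the 460 to 772 CPM of the other 5, and smooth muscle genes to 1391 CPM, within 616 to 2901 CPM. The sums of these wall markers lay inside the range of the other libraries in mKO library 3, where that of the 10 neuronal genes lay far below it.

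The genes outside the 10 with the most similar profile were found by the mean absolute difference, over libraries, between a gene's centred log2 CPM and the members' median profile. Over the 6 libraries these were Gap43 at 0.07, a growth cone protein, then Phox2a at 0.10, Pcbd1 and Fam163a at 0.13, Syp at 0.14 and Erc2 at 0.15, followed by 9 more at up to 0.18, among them Elavl3, Map2, Syt5 and Syt9. Pcbd1 encodes the enzyme that recycles the cofactor of Th. Over the 5 libraries without mKO library 3, the nearest included Tubb4a and Aplp1 at 0.03 and Eno2 and Pcsk1n at 0.05, followed by Adra2a, Scg3, Atp1b1, Olfr78 and Faim2. Genes compared over these 5 libraries also had to span at least 1 on the log2 scale there. The difference itself made no use of mKO library 3. However, the filter of at least 1 CPM averaged all 6 libraries, and the members had been chosen on mKO library 3. In that library Scg3 had no read but Tubb4a kept 3.66 CPM, against 6.77 to 17.1 CPM in the other 5.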

How the data were processed

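Messenger RNA from 3 mKO and 3 control pools was sequenced as paired reads. The submitters' processing notes name HISAT2 2.1.0 and the genome build GRCm39, featureCounts 2.0.1, and for reads Trim Galore 0.4.0 and FastQC 0.11.8. Each deposited file holds whole-number counts of reads by gene, not normalized by the authors. No source used here gives the strand setting or a gene filter, so reads of overlapping or antisense genes cannot be told apart. Nothing in the labels says more of how the pools were made, and p-values measure only the spread between these libraries. A library pair that differed by less than sampling noise was not found.

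From those counts, edgeR 4.0.16 (R 4.3.3) gave TMM-scaled CPM and, after filterByExpr, robust quasi-likelihood tests of mKO against control with Benjamini-Hochberg adjustment over all genes tested, with and without mKO library 3. The fits were run on simulated counts with known fold changes. Those counts held no outlying library like mKO library 3, so that case was not tested. Log2 ratios used a prior count of 2. RPKM used the summed exon length of each gene in GENCODE vM21. Counting intervals are exact Poisson intervals of the reads in mKO library 3, and cover counting error only. Alternatives were other size factors, no count filter, leaving out globin and mitochondrial genes, DESeq2 1.42.0, limma 3.58.1 voom, the replicate number as a block and leaving out each library.

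The 10 genes and the 22 lists were chosen with earlier results of these data known. Named were all 10 genes, measured noradrenergic identity, chromaffin and paralog genes, up to 4 genes of the highest mean CPM from each other list, and the 15 and 10 genes with the nearest profiles among genes of at least 1 CPM. Genes without reads carry a floor of 3 reads. Promoter windows are from RefSeq (GRCm38.p6), a build other than that of the counts, and are matched by symbol. Some genes that this rule names are not reported here.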

Additional observations from a re-analysis of the deposited data

How the results depend on the processing

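In both fits, 0 of the 10 genes passed the threshold with edgeR under either size factors, without a count filter, without globin and mitochondrial genes, with DESeq2, with voom, with the replicate block and with each library left out. All 10 stayed lowest in mKO library 3 under every scaling and without any other library, and the median log2 ratio ran between -4.42 and -4.12. The median log2 fold change over all 6 libraries was -0.69, -1.50 with voom, and between -1.37 and -0.18 with a library left out, where -0.18 is the value without mKO library 3, and it was -0.32 without control library 3. Over all 6 libraries with a library left out, Npy ran between -1.40 and 0.08, positive only without control library 3, and Stmn2 between -1.11 and 0.02, positive only without mKO library 3.

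Without mKO library 3, no sign of a member's fold change was stable. With a further library left out, the median ran between -0.52 and 0.22, Th between -0.57 and 0.26, Ddc between -0.37 and 0.20, Dbh between -0.92 and 0.06, Npy between -0.58 and 0.61, Syn2 between -0.70 and 0.15, Stmn2 between -0.24 and 0.32, Uchl1 between -0.37 and 0.27, Rtn1 between -0.44 and 0.24, Eef1a2 between -0.51 and 0.21 and Ndrg4 between -0.57 and 0.18. Stmn2 was negative without mKO library 2 (-0.19) or control library 1, and the other 9 were positive only without mKO library 1 or control library 3.

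Deviations from the group means correlated at -0.136, -0.152 and -0.267 in same-numbered pairs of libraries. In pairs of unlike number they correlated between -0.0873 and 0.238. Deviations within a group of 3 depend on each other, so these values cannot settle whether replicate numbers pair the libraries. With the replicate number as a block, the median was -1.05 over 6 libraries and 0.25 without mKO library 3, where Th stood at 0.29, Ddc at 0.22, Dbh at 0.04, Npy at 0.60, Syn2 at 0.06, Uchl1 at 0.28, Rtn1 at 0.26, Eef1a2 at 0.24 and Ndrg4 at 0.18. The block called 331 of all genes there, against 4 without it, and none of the 10. Control library 3 was then alone in its block, so the contrast rested on the other replicate numbers only. DESeq2 called 467 genes over 6 libraries, against 0 with edgeR, and 312 without mKO library 3. The cause was not tested. With 3 pools or fewer per group, a single library can change the spread. Each member had at least 26 reads in every library, and an effect of depth was not tested.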
